A study of Mus musculus with 18 samples.

Results

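The sites described here are the 449 autosomal recombination hotspots at which the DMC1 value in spermatocytes lacking Ewsr1 was at least 2 times the value in control spermatocytes, out of 8744 autosomal hotspots and 9132 hotspots in all. DMC1 is the meiotic strand-exchange protein that coats single-stranded DNA at double strand breaks, so its ChIP-seq signal marks where breaks were made and were being repaired. Across the autosomal list 5.13% of the hotspots met the rule, and on the X chromosome, which was left out, 4 of 388 (1.03%). The same ratio chose them, so it is given as a description and carries no weight as a result. They are called gaining hotspots below, meaning a gain in share of the DMC1 signal: the B6 and Ewsr1 CKO columns summed to nearly the same total over all 9132 hotspots, X included, and no statement on the number of breaks can be made from them. Over the autosomal hotspots alone the sums were 713518 RPM for B6 and 765437 RPM for Ewsr1 CKO, and the median ratio of Ewsr1 CKO to B6 was 1.12, so a count of autosomal hotspots higher in Ewsr1 CKO is read against that lean. With the columns scaled to the B6 median, 198 hotspots met the rule.

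The groups used were C57BL/6J (B6) controls, Ewsr1-CKO animals in which Stra8-iCre, a recombinase expressed in male germ cells, deleted Ewsr1, and Prdm9+/- animals (Prdm9 het). All were spermatocytes of mice 14 days old, measured by ChIP-seq for DMC1 in each of these 3 genotypes and for H3K4me3 and H3K36me3 in Ewsr1 CKO. Each group had 2 samples, but the deposited tables hold 1 value per group and hotspot, in RPM (a read count scaled to sequencing depth), and do not say whether it pools both samples. The Prdm9 het DMC1 column summed to 153235 RPM over all listed hotspots, against 867788 RPM for B6 and 867820 RPM for Ewsr1 CKO, and its values lay on no common step, unlike those of the other 2 columns. Its values are therefore compared between hotspots, and a lower value in Prdm9 het than in B6 at a hotspot cannot be read as a fall. No spread between animals could therefore be computed, no test was made, and every difference below describes the authors' columns. The 9132 hotspots are those the authors listed as shared by B6, Ewsr1 CKO and Prdm9 het, so a site found in Ewsr1 CKO alone could not be among them. The listed H3K4me3 intervals are likewise those the authors gave as common to B6 and Ewsr1 CKO.

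In mice, the zinc fingers of PRDM9 bind DNA at hotspots and its methyltransferase domain places H3K4me3 and H3K36me3 on the flanking nucleosomes. Breaks then form at a subset of these sites, after the hotspot is brought to the protein axis at the base of the chromatin loops. EWSR1 is an RNA- and DNA-binding protein that has been described as a PRDM9 partner. H3K4me3 is also found at the promoters of active genes, where it is placed by other enzymes.

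Each gaining hotspot was set against the 5 other autosomal hotspots nearest to it in B6 DMC1, which gave 2245 comparisons to 1438 distinct hotspots, called B6-matched below. The coordinates are mm10, and gene positions come from the RefSeq annotation of GRCm38.p6, the same primary assembly. Only whole gene spans were available from it, so a site inside a gene was not divided into exon, intron or UTR.

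Of the 449 gaining hotspots 5 (1.11%, Wilson 95% interval 0.477 to 2.58%) overlapped a RefSeq promoter window, taken from 250 bases before to 50 after a gene start. The share was 1.83% of the B6-matched and 1.88% of all autosomal hotspots, both inside that interval. The windows of 3 of them are shown because they span the range of H3K4me3 seen at these 5 sites. They read 5′ to 3′ on the gene's strand, and capitals mark CpG dinucleotides. The first, on the minus strand at chr10:103369206-103369505, belongs to the lncRNA gene 6430590A10Rik and lies inside Slc6a15, which encodes a neutral amino acid transporter. The second is that of Slco6b1, on the minus strand at chr1:96997511-96997810. The third is that of Vmn1r235, a vomeronasal receptor gene, on the plus strand at chr17:21260177-21260476.
6430590A10Rik: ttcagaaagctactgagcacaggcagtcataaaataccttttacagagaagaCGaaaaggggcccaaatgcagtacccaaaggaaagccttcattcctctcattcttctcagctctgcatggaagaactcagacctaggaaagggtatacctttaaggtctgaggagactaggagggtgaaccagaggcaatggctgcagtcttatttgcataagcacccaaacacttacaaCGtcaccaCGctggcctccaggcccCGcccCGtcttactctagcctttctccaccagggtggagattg
Slco6b1: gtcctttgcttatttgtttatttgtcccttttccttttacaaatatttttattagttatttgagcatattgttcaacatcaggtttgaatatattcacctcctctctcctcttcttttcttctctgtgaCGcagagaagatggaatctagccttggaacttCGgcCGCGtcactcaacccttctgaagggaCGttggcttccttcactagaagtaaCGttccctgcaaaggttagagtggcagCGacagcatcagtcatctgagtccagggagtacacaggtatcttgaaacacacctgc
Vmn1r235: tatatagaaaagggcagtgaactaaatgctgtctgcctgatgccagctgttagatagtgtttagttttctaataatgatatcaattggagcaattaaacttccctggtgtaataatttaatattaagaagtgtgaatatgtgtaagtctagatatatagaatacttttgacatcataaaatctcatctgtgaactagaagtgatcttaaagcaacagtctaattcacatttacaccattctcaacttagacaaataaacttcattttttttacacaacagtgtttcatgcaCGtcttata

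The hotspot over the 6430590A10Rik window had 93.6 RPM DMC1 in B6, 192.0 in Ewsr1 CKO and 29.1 in Prdm9 het, with 4.38 RPM H3K4me3. The one over the Slco6b1 window had 37.4, 95.5 and 9.71 RPM DMC1 and 2.49 RPM H3K4me3. The one over the Vmn1r235 window had 11.1, 24.3 and 3.22 RPM DMC1 and 0.168 RPM H3K4me3. The windows held 5, 7 and 1 CpG dinucleotides and were 49.7%, 43% and 30.7% G and C. The 2 windows not shown held 1 and 4 CpG dinucleotides, at hotspots with 1.01 and 1.22 RPM H3K4me3. The motif GNTGCTNCT, letters that have been reported for the B6 form of PRDM9, was searched on both strands in all promoter windows. It was in none of the 5 windows at gaining hotspots, in 7.13% of the 31396 autosomal windows and in 20 of 179 windows at other hotspots. These letters were sought only in the promoter windows, since the sequence of the hotspots themselves was not used here.

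Gaining hotspots were mostly weak in B6. Their median B6 DMC1 value was 24.8 RPM, with quartiles of 15.2 and 43.3 RPM and a range of 6.43 to 237 RPM, against a median of 47.3 RPM over all autosomal hotspots. The B6 value is the denominator of the rule, so this lean toward weak sites is partly set by it. Of the weakest decile in B6 115 of 875 (13.1%) were gaining, and of the strongest decile 4 of 875 (0.457%). In Ewsr1 CKO the gaining hotspots had a median of 61.6 RPM, with a range of 14.0 to 670 RPM. Together they took 2.26% of the autosomal DMC1 sum in B6 and 5.01% in Ewsr1 CKO. The Ewsr1 CKO values and the larger share there follow from the rule and are description only.

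**Figure D1:**
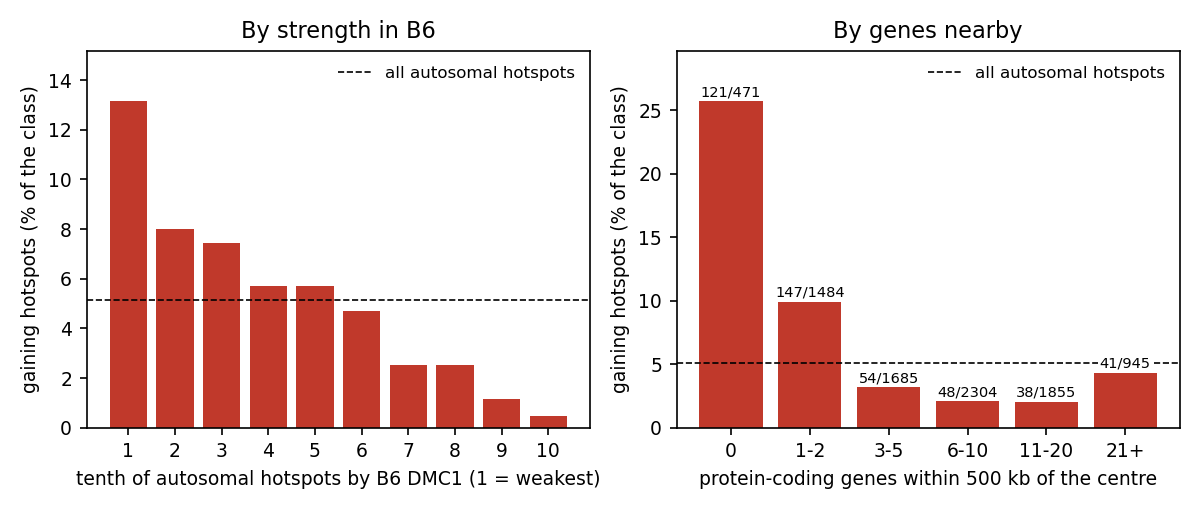
Share of autosomal hotspots that were gaining, in percent, by decile of B6 DMC1 (left) and by the number of protein-coding genes within 500 kb of the centre (right, with gaining and all hotspots of each class above the bars). The dashed line is the share over all autosomal hotspots, 5.13%. The share falls from 13.1% to 0.457% with strength and from 25.7% to 2.05% between 0 and 11 to 20 genes, and is 4.34% above 20 genes.

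The centres of the 3 strongest gaining hotspots in B6 all lay outside protein-coding genes. The first, chr5:83442687-83445747, had 237 RPM in B6, 670 in Ewsr1 CKO and 42.8 in Prdm9 het, and its nearest protein-coding gene was Tecrl, 89.0 kb away. Scaled to the B6 total, its Prdm9 het value was 242 RPM. The second, chr4:78761067-78763620, had 209, 430 and 44.4 RPM and no protein-coding gene within 500 kb. The nearest was Ptprd, a receptor tyrosine phosphatase gene, at 551 kb. The third, chr16:66404591-66407595, had 204, 439 and 50.2 RPM and lay 249 kb from Cadm2, a cell adhesion gene. H3K4me3 at the 3 sites was 0.794, 1.21 and 0.690 RPM, and only the Cadm2 site overlapped a listed H3K4me3 interval.

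At the threshold itself, the 3 hotspots just inside had ratios of 2.003 (chr17:59123103-59125704, 34.1 RPM in B6 and 68.3 in Ewsr1 CKO), 2.003 (chr4:144909481-144911905, 39.2 and 78.6 RPM) and 2.003 (chr2:137384159-137385412, 7.84 and 15.7 RPM). The 3 just outside had 1.99995 (chr15:85307461-85309346, 16.2 and 32.4 RPM), 1.999 (chr4:5011092-5014108, 90.2 and 180.2 RPM) and 1.999 (chr9:91080048-91082046, 10.9 and 21.9 RPM). The values of both columns were multiples of a step, 0.129 RPM for B6 and 0.246 RPM for Ewsr1 CKO, to within 0.00349 and 0.000208 of a step. That 1 step is 1 read is not stated by the authors and was not established from the values, so no count test was run. If it were so, the gaining hotspots held a median of 193 reads in B6 (lowest 50) and 251 in Ewsr1 CKO (lowest 57). The median counting error of a log2 ratio was then 0.14. This error covers counting only.

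Position relative to genes, which the rule did not use and which was examined after seeing the data, differed from that of B6-matched hotspots. The centre of 95 of 449 (21.2%, Wilson 95% interval 17.6 to 25.2%) was inside a protein-coding gene, against 54.3% of the B6-matched hotspots and 52.8% of all autosomal hotspots. Counting every RefSeq gene, noncoding ones included, the shares were 30.7%, 60.4% and 60.2%. The median number of protein-coding genes within 500 kb of the centre was 2 at gaining hotspots, 8 at B6-matched and 7 over all. No such gene was within that distance at 121 gaining hotspots (26.9%, Wilson 23.1 to 31.2%), compared with 2.49% of the B6-matched and 5.39% of all autosomal hotspots. Matched also on genes nearby, the difference in the share inside protein-coding genes went from -33.1 to -15.8 percentage points. The nearest protein-coding gene was at least 1 Mb away at 47 (10.5%), compared with 0.535% of the B6-matched and 1.69% of all. Intervals treat hotspots as independent, which neighbouring hotspots are not.

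Read from the side of the genes, 121 of 471 autosomal hotspots with no protein-coding gene within 500 kb were gaining (25.7%). The share was 9.91% with 1 to 2 genes, 3.20% with 3 to 5, 2.08% with 6 to 10 and 2.05% with 11 to 20. It rose to 4.34% among the 945 hotspots with more than 20 genes nearby. On 19 of 19 autosomes the share inside protein-coding genes was lower for gaining hotspots than for the others. On chromosome 16 none of the 19 gaining hotspots was inside a protein-coding gene, against 59.8% of the other hotspots there. On chromosome 11 the shares were closest, 50% of 14 and 58.8%.

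The difference in gene position was wider for stronger sites. In the tertile of gaining hotspots weakest in B6 (median 12.9 RPM), 30.7% were inside a protein-coding gene and 52.8% of their matched hotspots were. In the middle tertile (24.8 RPM) the shares were 19.5% and 54.4%, and in the strongest (53.8 RPM) 13.3% and 55.6%. The matched shares hardly moved, so the widening came from the gaining hotspots. Those inside genes had a median of 18.8 RPM in B6 and 5.31 in Prdm9 het, and those outside 27.0 and 6.93 RPM. Where a gaining hotspot was inside a protein-coding gene, that gene had a median length of 146 kb, against 126 kb for the B6-matched hotspots inside genes.

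H3K4me3, measured in Ewsr1 CKO, was lower than at hotspots of like B6 strength. The median was 0.594 RPM (quartiles 0.435 and 0.905 RPM, 95% interval of the median over hotspots 0.554 to 0.646 RPM) at gaining hotspots, 0.722 RPM at B6-matched and 0.879 RPM at all autosomal hotspots. The median width of the sites was 2317 bp, 2278 bp and 2516 bp, and per kb of width the H3K4me3 medians were 0.266, 0.319 and 0.361 RPM. The difference went with gene surroundings: when the matched hotspots were also taken from the same class of number of genes nearby, their median was 0.602 RPM, and the ratio of the gaining to the matched median moved from 0.822 to 0.986. Among hotspots that were not gaining, the median H3K4me3 was 0.668 RPM with no gene nearby and 1.29 RPM with more than 20.

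A listed H3K4me3 interval overlapped 173 of 449 gaining hotspots (38.5%, Wilson 34.1 to 43.1%), 44.2% of B6-matched and 55.9% of all autosomal hotspots. Matched also on genes nearby, the share was 36.6%, so the direction of this difference turned. It turned as well with the columns scaled to the B6 median (0.505 percentage points, against -5.70), and without chromosome 1 it was -3.22 points. The 173 had a median of 33.3 RPM DMC1 in B6 and 0.939 RPM H3K4me3, and the other 276 had 21.9 and 0.466 RPM. H3K36me3 at the overlapping intervals had a median of 1.06 RPM for gaining and 1.14 RPM for B6-matched hotspots.

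The 3 gaining hotspots highest in H3K4me3 overlapped no listed H3K4me3 interval. They were chr1:180402321-180404876 inside Itpkb, an inositol trisphosphate kinase gene, with 5.28 RPM, chr5:77245529-77247855 with 4.82 RPM and the Slc6a15 site described above with 4.38 RPM. The second lay 18.8 kb from Rest, which encodes a repressor of neuronal genes. DMC1 at the first was 14.1 RPM in B6, 30.4 in Ewsr1 CKO and 9.49 in Prdm9 het, and at the second 15.7, 36.8 and 8.88 RPM. Both were thus weak in DMC1 and high in H3K4me3, unlike the strongest gaining hotspots.

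**Figure D2:**
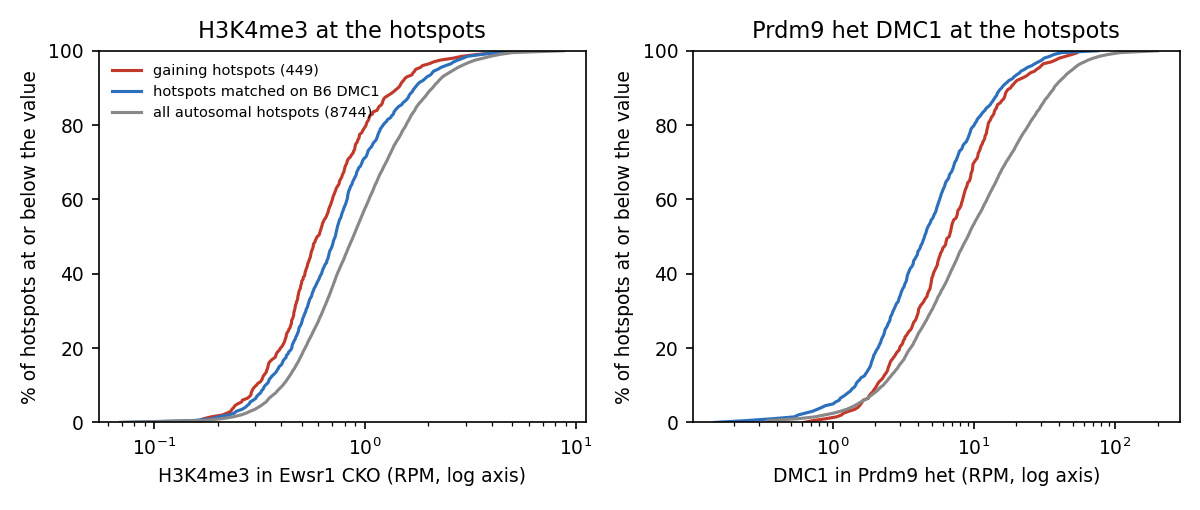
Cumulative share of hotspots, in percent, at or below each value of H3K4me3 in Ewsr1 CKO (left) and of DMC1 in Prdm9 het (right), both in RPM on log axes, for the 449 gaining hotspots, the B6-matched hotspots and all 8744 autosomal hotspots (values of 0 are not drawn). Gaining hotspots lie below the B6-matched ones in H3K4me3 (medians 0.594 and 0.722 RPM) and above them in Prdm9 het DMC1 (6.67 and 4.46 RPM).

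DMC1 in Prdm9 het, a column the rule did not use, was higher than at hotspots of the same B6 value. The median was 6.67 RPM (95% interval 5.76 to 7.23 RPM, range 0.623 to 55.4 RPM) at gaining hotspots and 4.46 RPM at B6-matched, a ratio of 1.497, with 9.02 RPM over all autosomal hotspots. Scaled to the B6 total, the first 2 medians were 37.8 and 25.2 RPM. In tertiles by B6 the medians were 2.81 against 2.005 RPM, 6.29 against 4.33 RPM and 13.3 against 11.3 RPM, so each tertile had the same direction. Gaining hotspots took 3.03% of the autosomal Prdm9 het sum and 2.26% of the B6 sum. When the match was made on the mean of the log values of B6 and Ewsr1 CKO, the matched median was 6.83 RPM and the ratio 0.977. The direction thus turned with the match, and the rule and the first match both use the B6 column, so the higher Prdm9 het value is not independent of the rule.

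The 3 gaining hotspots highest in Prdm9 het were chr9:81292717-81295835, chr6:59976614-59979605 and chr16:61483187-61485986. The first had 55.4 RPM in Prdm9 het, 126 RPM in B6 and 269 in Ewsr1 CKO. Its nearest protein-coding gene was Htr1b, a serotonin receptor gene, at 334 kb. The second had 54.2, 146 and 363 RPM, and the third 54.1, 151 and 346 RPM. Neither had a protein-coding gene within 500 kb. All 3 overlapped a listed H3K4me3 interval, with 1.17, 1.32 and 1.28 RPM H3K4me3.

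The 3 lowest in Prdm9 het relative to B6 were weak sites. At chr3:44661751-44664302, 715 kb from the protocadherin gene Pcdh10, DMC1 was 0.671 RPM in Prdm9 het, 15.3 RPM in B6 and 33.6 in Ewsr1 CKO. At chr2:148903272-148905291 it was 1.16, 18.5 and 38.5 RPM, and at chr17:77080954-77082531 it was 1.58, 24.4 and 55.5 RPM. Scaled to the B6 total, the Prdm9 het values were 3.80, 6.58 and 8.93 RPM. None of these overlapped a listed H3K4me3 interval. The Prdm9 het column held 8744 distinct values at 8744 hotspots, so its depth is unknown and no counting error can be given.

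Gaining hotspots stood further from other hotspots. The median distance between centres to the nearest listed hotspot was 148 kb (quartiles 60.6 and 310 kb), against 86.1 kb for B6-matched and 83.0 kb for all autosomal hotspots. Another hotspot lay within 50 kb of 89 (19.8%), compared with 32.3% of the B6-matched. A median of 5 other hotspots lay within 1 Mb, against 8. The wider spacing was seen in the middle tertile by B6 (179 against 81.2 kb) and the strongest (179 against 80.6 kb), and was small in the weakest (101 against 91.7 kb). Hotspots in regions with no gene nearby were also further apart when they were not gaining, with a median of 137 kb. Matched also on genes nearby, the ratio of the gaining to the matched median spacing was 1.51, against 1.72 for the match on B6 alone.

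Although sparse, they came in groups. The next listed hotspot on at least 1 side was itself gaining for 188 of 449 (41.9%, Wilson 37.4 to 46.5%), for 5.70% of the B6-matched hotspots and for 9.11% of all autosomal ones. Matched also on genes nearby, the matched share was 13.6%. The 188 formed 67 runs of at least 2 consecutive gaining hotspots, and the other 261 stood singly. Those in runs had a median of 28.6 RPM in B6 and 12.8% were inside a protein-coding gene. The single ones had 22.4 RPM, and 27.2% were inside such a gene.

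The grouping reached over megabases. Counted from each gaining hotspot in turn, 28.8% of the hotspots within 50 kb were gaining (30 of 104 counts). The share was 20.6% at 0.1 to 0.3 Mb, 16.9% at 0.3 to 1 Mb and 12.8% at 1 to 3 Mb. It was 6.58% at 3 to 10 Mb and 5.06% at 10 to 30 Mb. A pair of gaining hotspots was counted from both ends, so these are not shares of distinct hotspots or distinct pairs. Seen from B6-matched hotspots the shares rose from 1.44% to 5.26% over the same distances. Hotspots next to a gaining one that did not meet the rule themselves also leaned toward Ewsr1 CKO: for these 609 the median Ewsr1 CKO to B6 ratio was 1.42 (quartiles 1.19 and 1.70) and 542 (89.0%) were higher in Ewsr1 CKO. For the 7686 with no gaining neighbour the ratio was 1.08 (0.907 and 1.31) and 61.7% were higher. Their B6 medians were 55.2 and 48.6 RPM. The 609 also lay in gene-poorer places, with a median of 3 against 7 protein-coding genes within 500 kb and 34.2% against 56.2% inside such a gene. All hotspots that were not gaining and had no such gene within 500 kb had medians of 70.0 RPM in B6 and 104 in Ewsr1 CKO. The lean of the 609 is in the ratio the rule uses, and hotspots reaching 2 were taken out. It is thus a description and no separate support for the grouping. The part of gene surroundings in this lean was not tested.

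**Figure D3:**
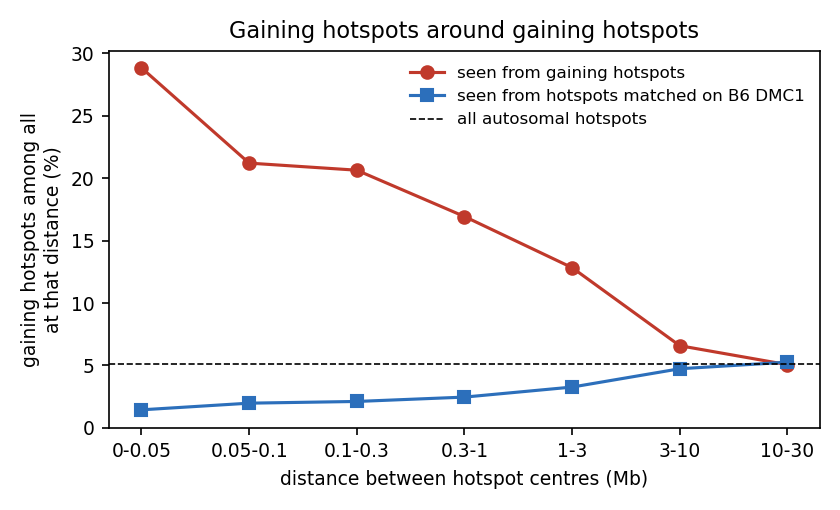
Percent of autosomal hotspots that were gaining (vertical axis), by distance in Mb between centres (horizontal axis), seen from gaining hotspots and from B6-matched hotspots. Counts were made from each hotspot in turn, so a pair of gaining hotspots is counted from both ends. The dashed line is the share over all autosomal hotspots, 5.13%. Seen from gaining hotspots the share falls from 28.8% within 50 kb to 5.06% at 10 to 30 Mb.

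The longest run had 8 members, on chromosome 1 between 110398220 and 113840617, a span of 3.44 Mb that held the protein-coding genes Cdh19, a cadherin gene, and Dsel. None of the 8 was inside a gene of that kind. DMC1 was 11.8 to 42.2 RPM in B6, 32.9 to 112 in Ewsr1 CKO and 1.89 to 8.74 in Prdm9 het, and 4 of the 8 overlapped a listed H3K4me3 interval, with H3K4me3 of 0.187 to 1.05 RPM. The strongest of them, chr1:111420556-111423152, had 42.2 RPM in B6, 112 in Ewsr1 CKO and 8.71 in Prdm9 het. Its neighbour 29.7 kb away, chr1:111450419-111452626, had 24.8, 67.8 and 8.74 RPM. The hotspot with the least H3K4me3, chr1:111735691-111737387 with 0.187 RPM, had 14.0, 58.4 and 2.20 RPM. The last of the run, chr1:113838373-113840617, lay 1845 kb from its nearest protein-coding gene, Cntnap5a, a contactin-associated protein gene, and had 26.0, 64.3 and 4.96 RPM.

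Altogether 13 runs had at least 4 hotspots, with 64 in all, and 7 of these runs spanned no protein-coding gene. They include a run of 6 on chromosome 15 between 48828898 and 50201573, with 12.6 to 117 RPM in B6, 39.5 to 340 in Ewsr1 CKO and 1.502 to 30.1 in Prdm9 het, of which none overlapped a listed H3K4me3 interval. In a run of 4 on chromosome 16 between 60919055 and 62193643, which holds 1 of the 3 sites highest in Prdm9 het, the values were 17.9 to 151 RPM, 62.6 to 346 RPM and 12.1 to 54.1 RPM. The run of 4 on chromosome 4 between 143459556 and 144911905 was of another kind: its span held 34 protein-coding genes, many of them of the Pramel family.

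The stretch of chromosome 1 from 99002560 to 113840617, chosen after its values were seen because it holds 4 of these runs, had 42 listed hotspots in 14.8 Mb, of which 20 (47.6%) were gaining. None of the 20 was inside a protein-coding gene, and 13 of the other 22 were. The 20 had a median of 26.2 RPM in B6, 64.6 in Ewsr1 CKO and 5.12 in Prdm9 het. The other 22 had 55.0, 56.1 and 9.49 RPM, and 19 of them were higher in Ewsr1 CKO. Among all autosomal hotspots that were not gaining, 89.0% of those next to a gaining one had this direction. The share was 61.7% of those with no gaining neighbour, and the 22 include hotspots next to a gaining run. The 20 thus made up 4 unbroken runs, of 4, 4, 4 and 8 hotspots. H3K4me3 had a median of 0.635 RPM at the 20 and 1.08 RPM at the 22.

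**Figure D4:**
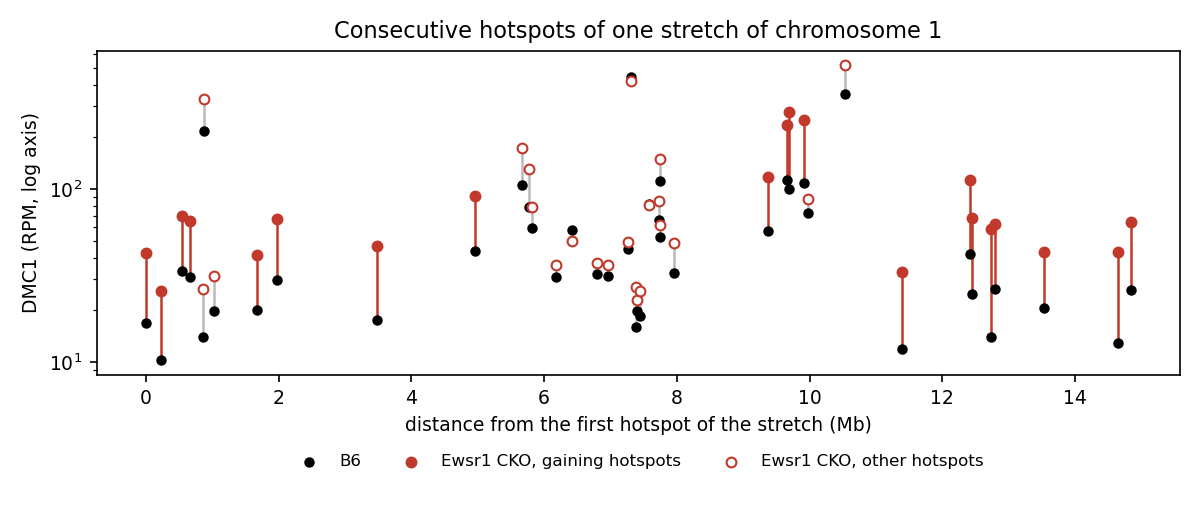
DMC1 in RPM (log axis) at the 42 consecutive hotspots of this stretch of chromosome 1, by distance in Mb from its first hotspot. Black points are B6, filled red points Ewsr1 CKO at the 20 gaining hotspots, open red points Ewsr1 CKO at the other 22, and a line joins the values of a hotspot. The 20 gaining hotspots form 4 runs separated by the other 22, most of which stand together in the middle of the stretch.

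By chromosome, gaining hotspots were 8.53% of those on chromosome 19 (18 of 211) and 8.10% on chromosome 1 (58 of 716), the highest shares. The lowest was 2.75%, on chromosome 11 (14 of 509). Beside these 18, 58 and 14, the B6-matched comparisons on the same chromosomes, divided by 5, were 14, 17.4 and 31.8. Few gaining hotspots were at the distal ends. Within 10 Mb of the last listed hotspot of their chromosome lay 13 (2.90%), against 8.33% of the B6-matched and 7.33% of all autosomal hotspots. Near the first listed hotspot the shares were 5.57% and 6.19%.

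The opposite set, the 48 autosomal hotspots (0.549%) with a ratio of at most 0.5, differed in surroundings. Of these, 38 (79.2%) were inside a protein-coding gene, the median number of protein-coding genes within 500 kb was 13, 33 (68.8%) lay within 10 Mb of the last listed hotspot, and none had a gaining hotspot next to it. Over all autosomal hotspots these values were 52.8%, 7 genes, 7.33% and 9.11%. The 48 had medians of 2.11 RPM H3K4me3, 33.1 RPM DMC1 in B6 and 7.40 in Prdm9 het. Over all autosomal hotspots these medians were 0.879, 47.3 and 9.02 RPM. The 48 were not matched on B6 or on genes nearby. The median autosomal ratio was 1.12, so a cut at 0.5 is stricter than a cut at 2, and 48 and 449 are not like counts. Both sets were chosen on the same ratio, and the differences were not tested.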

How the data were processed

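DMC1, H3K4me3 and H3K36me3 were measured by ChIP-seq. Of 18 samples in 12 groups, the columns of 5 groups (10 samples) were used, and the other 8 samples were not analysed here. The authors deposited RPM values, per the file headers, with 1 value per group and site, and the denominator is not given in the sources used here. The submitters' processing notes name BWA 0.5.10, Trimmomatic 0.32 and mm10, with no role. How peaks were called and duplicates treated is not given in the sources used here. Groups were taken from titles. Another 4 columns matched no sample of the series and were not used. The H3K4me3 table had 5787 lines, averaged over repeated intervals to 5567.

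Hotspots with an Ewsr1 CKO to B6 ratio of at least 2 were taken on 19 autosomes. Each was matched, on log B6 RPM, to the 5 nearest hotspots that were not gaining, tied ones in a seeded random order. H3K4me3 overlap needed 1 bp. Genes were RefSeq GRCm38.p6 spans, placed by the hotspot's centre. Intervals are 95%, Wilson for shares and order statistics for medians. Columns held 1 value per group, so no test and no p-value was computed. The gaining hotspots, the features described and the rules were chosen with earlier results of these data known, and gene context, with the match on it, was added after seeing the data. Hotspots are named by rule: the 3 highest in B6, in Prdm9 het and in H3K4me3, the 3 lowest in Prdm9 het relative to B6, the longest run, the 3 on each side of the threshold, and those over promoter windows. The 3 windows shown, the long runs and the stretch of chromosome 1 were chosen after their values were seen. Functions were tested on simulated data. Python 3.11.15, numpy 2.4.6, pandas 2.3.3, scipy 1.17.1 and matplotlib 3.10.9 were used.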

Additional observations from a re-analysis of the deposited data

How the results depend on the processing

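Of 94 recomputed values 63 stayed within their interval or 1.5 times the reported count, 28 moved and 3 reversed, and the cause was not tested. No paired analysis was possible because each group has a single deposited value without a replicate number, so replicates could not be left out either. With a ratio of at least 1.5 there were 1664 gaining hotspots with a B6 median of 29.3 RPM, an H3K4me3 ratio to matched of 0.895, a Prdm9 het ratio of 1.27 and a difference inside protein-coding genes of -18.2 percentage points. With at least 3 there were 42, with 21.2 RPM, -38.6 points inside genes, a difference of 10.95 points in gaining neighbours and -8.57 points within 10 Mb of the last hotspot. With a ratio of at least 2 and a pseudocount of 1 RPM, which left 410 hotspots, that last difference was -7.02 points. With columns scaled to the B6 median there were 198, the H3K4me3 overlap difference turned from -5.70 to 0.505 points, the spacing ratio was 2.20 and the neighbour difference 29.7 points. With at least 20 RPM in B6 there were 278, with 38.1 RPM, a spacing ratio of 2.24 and -38.3 points inside genes. Above the lower quartile of the mean the B6 median was 34.1 RPM and the Prdm9 het ratio 1.24. Matched on the mean of B6 and Ewsr1 CKO, the H3K4me3 ratio was 0.732, its overlap difference -12.7 points and the Prdm9 het ratio 0.977. With 1 matched hotspot the H3K4me3 ratio was 0.762 and the gene difference -28.1 points. Chosen after seeing the data, matching also on genes nearby gave 0.986, 1.92 points of overlap, 28.2 points of neighbours and -15.8 points inside genes, and leaving out chromosome 1 gave -29.0 points inside genes. The alternatives on hotspot sequence and on the reference's chromosome ends were not run. With 1 value per group, no difference could be set against the variation between animals, and counting error is known for the B6 and Ewsr1 CKO columns only if 1 step is 1 read.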

Other observations

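The rise in the share of gaining hotspots among sites with more than 20 protein-coding genes within 500 kb came with receptor gene clusters, a split chosen after the values were seen. Where at least 50% of those genes had symbols of the olfactory receptor (Olfr) or vomeronasal receptor (Vmn) families, which are expressed in sensory neurons of the nose, 16 of 59 hotspots were gaining (27.1%, Wilson 95% interval 17.4 to 39.6%). At the other gene-dense sites the count was 25 of 886 (2.82%, 1.92 to 4.13%). The 16 lay on 5 chromosomes, with 6 each on chromosomes 2 and 7, so hotspots of 1 cluster share their surroundings, and 4 of the 16 were inside a protein-coding gene. Their median DMC1 was 22.1 RPM in B6, 56.2 in Ewsr1 CKO and 5.81 in Prdm9 het, with 0.515 RPM H3K4me3, and 5 overlapped a listed H3K4me3 interval. The 25 had 15.2, 35.6 and 4.90 RPM DMC1 and 1.22 RPM H3K4me3. The strongest of the 16, chr2:87357730-87360367, had 164 RPM in B6, 344 in Ewsr1 CKO and 30.7 in Prdm9 het. The 43 hotspots in receptor clusters that were not gaining leaned the same way: 37 were higher in Ewsr1 CKO, with medians of 31.3 RPM in B6 and 42.2 in Ewsr1 CKO. At the other 861, 497 were higher. This lean too is in the ratio the rule uses.

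On the X chromosome, outside the autosomal rule, 4 of 388 hotspots (1.03%) reached the same ratio. They had 14.8, 43.0, 19.8 and 15.4 RPM in B6, with 45.4, 87.9, 42.5 and 51.1 RPM in Ewsr1 CKO, and 3 of them had 1 or 2 protein-coding genes within 500 kb. The other had 13.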
